A study of Mus musculus with 8 samples.

Results

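The 2 diaphragm sections labelled dysgenic (genotype CaV1.1 -/-, here CaV1.1 KO), 1 of E14.5 and 1 of E18.5 (E, embryonic day), were compared with each other, to find which genes still change with stage in muscle that lacks CaV1.1. They belong to a series of 8 sections, in which spatial transcriptomics (Visium, a probe-based assay on a grid of capture spots) was run on formalin-fixed, paraffin-embedded embryonic mouse diaphragm. The other groups used here were 3 control sections of E14.5 and 2 control sections of E18.5, and 1 section of E18.5 lacking β-catenin in muscle (bCat cKO) entered the model fit alone. CaV1.1 KO embryos came from crosses of CaV1.1+/- mice, some of which also carried floxed β-catenin alleles with the muscle driver HSA, and control embryos kept at least 1 CaV1.1 and 1 β-catenin expressing allele, so a control embryo may be heterozygous for either. Which of these crosses gave each of the KO embryos, and their sex, were not given in the sources used here. A KO group is 1 diaphragm and 1 section per stage. A spot can hold parts of several cells, so fewer muscle cells and less RNA per muscle cell cannot be told apart.

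CaV1.1 is the voltage sensor of skeletal muscle: it sits in the triad, the contact between the transverse tubule and the calcium store, and opens the calcium release channel Ryr1 when the fibre is excited. Without it, fibres are excitable but do not contract. In normal muscle development, from fetal to adult stages, myoblasts leave the cell cycle and fuse, and mitochondria and glycogen enzymes accumulate. Over the same course embryonic and perinatal myosins give way to adult ones. At the endplate the fetal γ subunit of the acetylcholine receptor is replaced by the adult ε subunit.

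Muscle spots were chosen by their expression of 9 genes, Acta1, Actn2, Des, Myl1, Mylpf, Neb, Ryr1, Tnnt3 and Ttn, which are therefore not tested here. A spot was kept if it held at least 1000 UMIs (unique molecular identifiers, each a counted transcript molecule) and called muscle if its mean log-normalised level of these genes lay above the section's own Otsu cut. This gave 491 of 892 spots in the KO section of E14.5 and 813 of 1331 in that of E18.5, together 1304 of the 9873 muscle spots and 12703 spots kept in the series. Within 0.1 score units of the cut lay 56 spots at E14.5 and 96 at E18.5. Summed over muscle spots, the KO sections held 20762765 UMIs at E14.5 and 16293312 at E18.5, with medians of 20703 and 19362 UMIs per muscle spot, and the other 6 sections held between 12835167 and 75800909. Levels are given as CPM, counts per 1000000 UMIs scaled by TMM factors, which compare 1 gene between sections but not genes with each other, because probe pairs differ in efficiency.

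The 6 muscle markers measured summed to 6321 CPM in muscle spots and 1367 CPM in other spots of the KO section of E14.5, and to 40173 CPM and 11204 CPM at E18.5 (unscaled CPM). Of these markers, Ttn, Acta1 and Neb also chose the spots, so the gap between muscle and other spots is no test of the label. In muscle spots of controls the sums were 9293 to 12023 CPM at E14.5 and 74039 and 76282 CPM at E18.5. Levels of KO and controls below thus come from spots that differ in muscle marker signal. Muscle spots made up 55.0% and 61.1% of kept spots in the KO sections, against 67.5% to 85.1% in the controls of E14.5 and 87.1% to 89.4% in those of E18.5. Markers of other cell types were also present and some moved with stage in the KO sections. The 5 Schwann cell markers, none at 0, summed to 43.6 CPM at E14.5 and 110 CPM at E18.5, where the controls had 31.6 to 37.4 and 23.6 to 24.6. The 5 endothelial markers went from 164 to 368 CPM (controls 223 to 320 and 400 to 445), the 5 macrophage markers from 227 to 379 CPM (controls 122 to 137 and 108 to 143), and the 8 erythroid markers from 1825 to 425 CPM (controls 130 to 3706 and 697 to 705). The 5 hepatocyte markers stood at 412 and 616 CPM. The part of these cells in the results below was not tested.

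Cacna1s, which encodes CaV1.1 (chr1:136052806-136119822 in GRCm38.p6, RefSeq annotation), had 13.4 CPM at E14.5 and 29.7 CPM at E18.5 in the KO sections and 16.5, 15 and 18.4 CPM at E14.5 and 84.4 and 87.3 CPM at E18.5 in the controls. The KO sections thus kept transcript, and the KO level at E18.5 lay above every E14.5 section and below both E18.5 controls. Whether its probes lie outside the changed part of the gene is not given in the sources used here, so its level was not used to check the genotype. Cacna1s rose with stage in the KO by a log2 fold change of 1.14 ± 0.17 (standard error; edgeR quasi-likelihood test, Benjamini-Hochberg adjusted p = 7.78e-04), and in controls by 2.38 ± 0.10. The difference of -1.23 ± 0.20 was called at an adjusted p of 0.0156. With 1 muscle cut for all sections, which leaves 74 KO spots at E14.5 and 988 at E18.5, the KO rise was 0.30 and no longer called (adjusted p = 0.197).

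With 1 KO section per stage, the spread of KO muscle could not be measured. The test took it from the 5 control sections (3 residual degrees of freedom) and assumed that KO sections vary as they do, and each section is a separate sample whose p-values measure the spread between sections only. Of 14823 genes tested, leaving out the 9 genes that chose the spots, 3454 (23.3%) were called higher at E18.5 in the KO and 3452 (23.3%) lower, at an adjusted p under 0.05. In the KO 46.6% of genes were thus called in either direction, and in controls 65.6%, 4912 (33.1%) higher and 4817 (32.5%) lower, with 5 sections against the 2 of the KO. A description that needs no model used unscaled CPM, so its balance of higher and lower genes is not that of the TMM scale. At 10 or more unscaled CPM in either section, 2850 of 10339 genes (27.6%) differed by 2-fold or more between the KO sections, 1211 higher and 1639 lower at E18.5, whereas 0.380% to 0.717% of genes did so between any pair of control sections of the same stage. In controls and KO alike 2944 genes rose and 2811 fell, and 475 were called higher and 563 lower in the KO and not in controls, with the difference itself called for 96 and 122 of these. The calls went in opposite directions for 113 genes: 35 rose in the KO and fell in controls, and 78 did the reverse. Not called in the KO were 1890 genes that rose and 1971 that fell in controls. The test of the difference itself called 303 and 156 of these.

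Across the 6088 genes whose log2 CPM averaged 5 or more, the KO and the control stage change had a Pearson correlation of 0.89 and a Spearman correlation of 0.85. The pair of contrasts shares no section, but genes are not independent of each other, so this is a description of these libraries. Among the 4421 genes that controls changed at least 2-fold, the median KO change was 79.9% of the control change on the log2 scale (quartiles 54.7% and 106%). The KO moved the other way in 219 of them and further than controls in 1305. These genes were picked by their control change, which by itself tends to lower such a share. Without that choice, over the 6088 genes, the median absolute change was 0.52 in the KO and 0.55 in controls. The KO change, from 1 section per stage, has the larger error, which tends to raise its median absolute value. The scatter of both changes shows these genes along the diagonal, with those whose difference was called to either side.

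**Figure D1:**
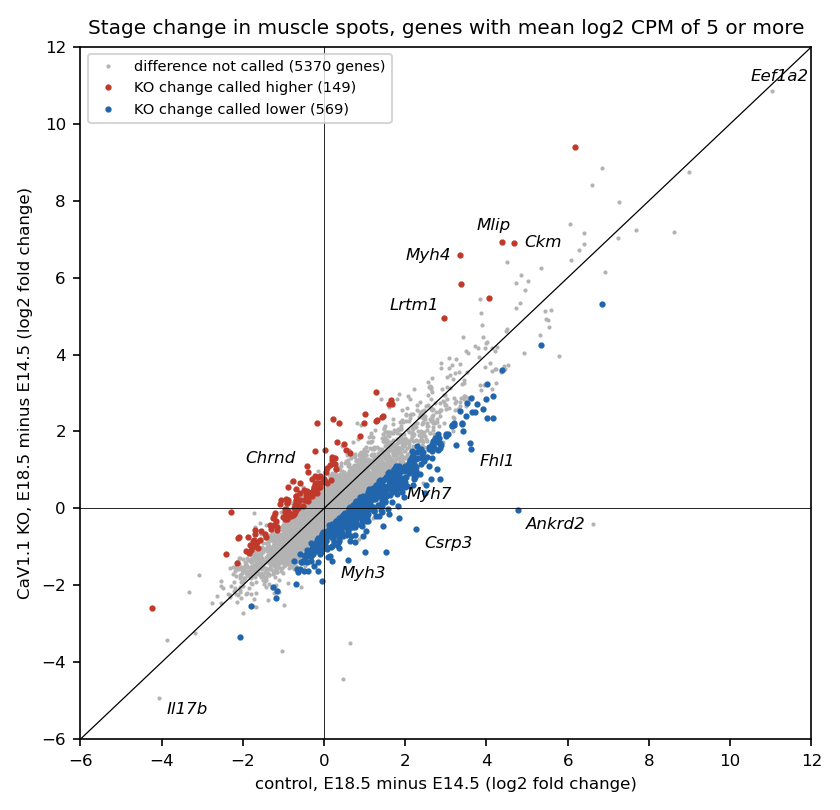
Stage change (E18.5 minus E14.5, log2 fold change) in muscle spots of controls on the x axis and of CaV1.1 KO on the y axis, for 6088 genes averaging 5 or more in log2 CPM; the black diagonal marks equal change. Red and blue points are the 149 and 569 genes whose difference between genotypes was called higher and lower in the KO, among them Myh4 and Lrtm1 above the diagonal and Ankrd2, Csrp3 and Myh3 below it.

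The difference between the KO and the control stage change was called for 1215 genes (8.2%), 434 (2.93%) with the KO change higher and 781 (5.27%) with it lower. This count rests on the control sections used: it was 224 without replicate 3 of control E14.5 and 583 without replicate 2, and 0 with the shared replicate number as a block. The share of higher calls also moved with the scaling. Scaled to the 9 muscle genes in place of all genes, the median over all genes shifted by -2.33 in the KO, by -3.18 in controls and by 0.85 in the difference (log2), and the calls became 287 higher and 12207 lower in the KO and 4830 higher and 54 lower in the difference. Fold changes below are on the TMM scale, that is, relative to the typical gene, and a gene's difference on the scale of the 9 muscle genes is greater by that 0.85. On the latter scale lists that rose less than the muscle genes had negative KO medians, such as -1.36 for the respiratory chain and -1.13 for the triad.

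The genes named below are those with the greatest changes among muscle-enriched genes, and the members of gene lists, and naming them by size is no test. Muscle-enriched means at least 1.5 times higher in muscle than in other spots of the KO section where the gene was higher. A gene higher at E18.5 was thus judged at E18.5 alone, and a gene higher at E14.5 at E14.5 alone. The lists were described by their counts beside the shares for all genes, which were 23.3% in each direction in the KO. The plot of list medians sets the KO beside controls for 18 of the lists.

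**Figure D2:**
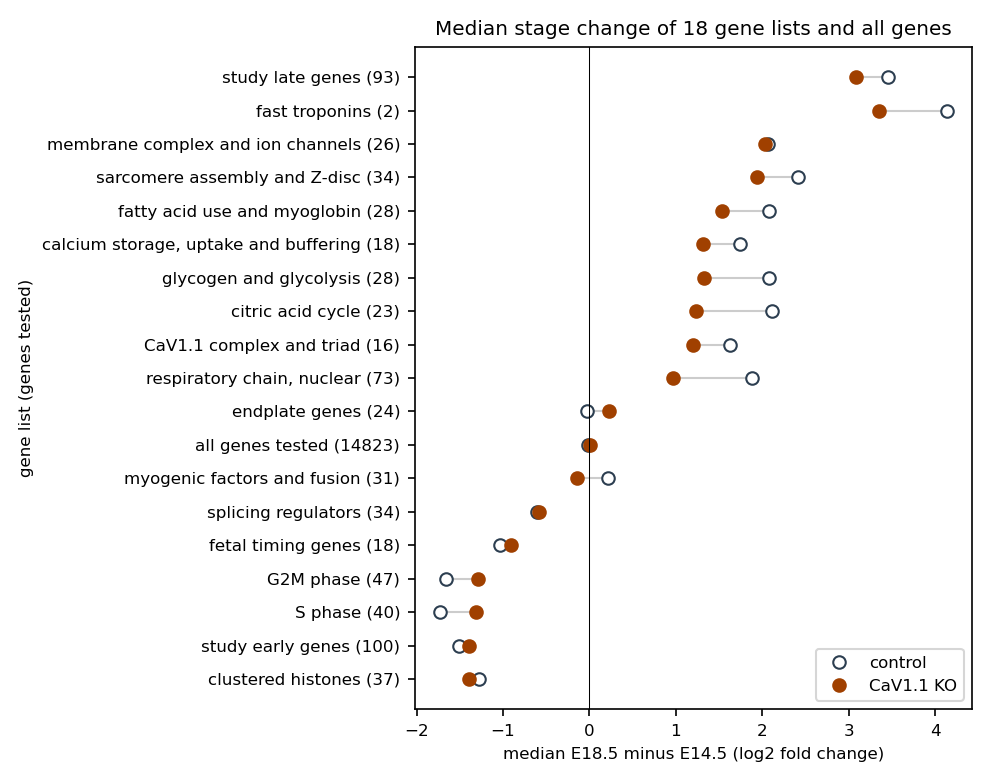
Median stage change (log2 fold change, x axis) over the genes tested of 18 lists and of all genes (y axis, number of genes in brackets) in CaV1.1 KO (filled) and controls (open). Among the lists plotted KO medians ranged from 3.35 for the fast troponins to -1.40 for the clustered histones (the 3 adult fast myosin heavy chains, at 6.58, and the 4 creatine kinases, at 4.70, are not plotted), and the respiratory chain genes had 0.97 in the KO against 1.88 in controls.

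In the study's lists of 100 late and 100 early genes, which its authors chose on the control sections, 92 of the 93 late genes tested, apart from those that chose the spots, rose in the KO and none fell (median log2 fold change 3.08, controls 3.45), and 90 of 100 early genes fell and none rose (median -1.39, controls -1.51). Late genes were low in the muscle spots of the KO section of E14.5: 84 of the 93 lay below all 3 controls of that stage, where 30.7% of all genes did. Early genes were high there, with 69 of 100 above all 3 controls, where 34.0% of all genes were. Those spots were chosen at a cut of 1.85, against 2.19 to 2.54 in the E14.5 controls. Their median muscle score was 2.55, against 2.82 to 3.01. The part of this in the levels of late and early genes was not tested.

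The skeletal myosin heavy chains lie side by side on chromosome 11, in the order Myh3 (chr11:67078273-67102291), Myh2 (chr11:67171027-67197517), Myh1 (chr11:67200102-67224577), Myh4 (chr11:67237812-67260447) and Myh8 (chr11:67277124-67308634). Their sequences are alike, and whether a probe pair for one also captures another was not tested. Myh3, the embryonic chain, had 3969 CPM at E14.5 and 1537 CPM at E18.5 in the KO and 5814, 4519 and 4321 CPM at E14.5 and 6007 and 5168 CPM at E18.5 in controls. It fell in the KO (log2 fold change -1.37 ± 0.27, adjusted p = 0.00322), while the control sections of both stages overlapped (0.19 ± 0.17, adjusted p = 0.336), and the difference was -1.56 ± 0.31 (adjusted p = 0.0249). The KO section of E18.5 had the lowest Myh3 level of the 7 KO and control sections.

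Myh8, the perinatal chain, had 2774 CPM at E14.5 and 20589.6 CPM at E18.5 in the KO and 4499, 3181 and 3418 CPM at E14.5 and 47317 and 45669.5 CPM at E18.5 in controls. It rose in both (log2 fold change 2.89 ± 0.31 in the KO, adjusted p = 1.91e-04, and 3.65 ± 0.20 in controls), and its KO level at E18.5 lay between the control stages.

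The 3 adult fast chains tested rose in the KO. Myh4, the type IIb chain, had 13.1 CPM at E14.5 and 1249 CPM at E18.5 in the KO and 32.7, 29.1 and 23.5 CPM at E14.5 and 238 and 344 CPM at E18.5 in controls. The KO section was thus the lowest of its stage at E14.5 and the highest at E18.5. Its rise of 6.58 ± 0.37 (adjusted p = 1.97e-05) against 3.35 ± 0.19 in controls gave a difference of 3.23 ± 0.36 (adjusted p = 0.0104). Myh1, the type IIx chain, had 162 CPM at E14.5 and 2023 CPM at E18.5 in the KO and 129, 94.4 and 113 CPM at E14.5 and 1689 and 2513 CPM at E18.5 in controls, and its KO level at E18.5 lay between the E18.5 controls. Myh2, the type IIa chain, was counted in 4 UMIs in the KO section of E14.5 and 925 at E18.5, an unscaled ratio of 295 with an exact 95% counting interval of 115 to 1084. Controls had 0.503 to 0.76 CPM at E14.5 and 44.4 to 73 CPM at E18.5.

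Of the slow chains, Myh7, the chain of slow and cardiac fibres (chr14:54970684-54994626), had 800.0 CPM at E14.5 and 842 CPM at E18.5 in the KO and 1123, 983 and 926 CPM at E14.5 and 3060.2 and 4094 CPM at E18.5 in controls. Its KO change was 0.07 ± 0.24 (adjusted p = 0.83) where controls rose by 1.82 ± 0.16, and the difference was -1.75 ± 0.29 (adjusted p = 0.0169). With 1 muscle cut for all sections Myh7 was called lower at E18.5 in the KO (-0.79, adjusted p = 0.0202). Myh6, the α cardiac chain, fell in the KO (from 42.8 to 12.8 CPM, log2 fold change -1.74 ± 0.39, adjusted p = 0.0136), a call lost without either control section of E18.5 (adjusted p = 0.0514 without replicate 1 and 0.0544 without replicate 2) and with 1 muscle cut for all sections (0.0966), and over all spots the KO change of Myh6 was 0.00484. Myh7b stood at 79.7 CPM at E14.5 and 62 CPM at E18.5 and did not pass the test (adjusted p = 0.195). Both Myh6 and Myh7b were also called lower in controls, by more than in the KO (Myh7b -1.19 against -0.36). Neither difference was called.

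**Figure D3:**
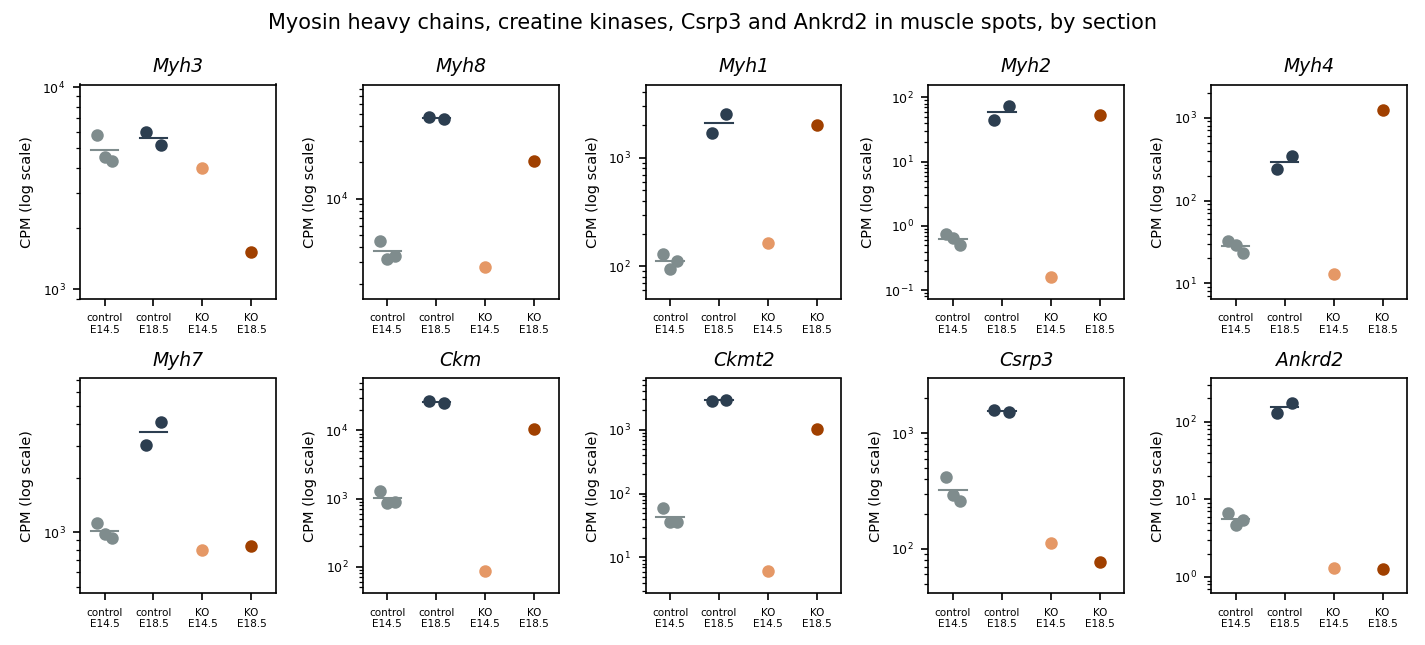
Level in muscle spots (CPM, log axis) of 6 myosin heavy chains, 2 creatine kinases, Csrp3 and Ankrd2 in each of 3 control sections of E14.5, 2 of E18.5 and 1 CaV1.1 KO section of each stage; each point is a section and lines are means of control sections. Myh4 in the KO went from 13.1 to 1249 CPM, above both E18.5 controls, while Myh3 fell to 1537 CPM and Ankrd2 stayed near 1.3 CPM at both stages.

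Both fast troponins tested were called higher in the KO, and no slow or cardiac troponin was. The fast troponins Tnnc2 and Tnni2 rose in the KO, from 1672 to 10618 CPM (log2 fold change 2.67 ± 0.29) and from 53.6 to 876 CPM (4.03 ± 0.25). Of the 5 slow and cardiac troponins, 1 was called lower and 4 were not called, 2 of the 5 with fold changes above 0. Tnnc1, the slow and cardiac calcium-binding subunit, fell from 1445 to 507 CPM (-1.51 ± 0.23, adjusted p = 9.25e-04), where controls had 927 to 1187 CPM at E14.5 and 796 to 928 CPM at E18.5, and the difference of -1.26 ± 0.27 was called (adjusted p = 0.0288). Tnni1, Tnnt1, Tnnt2 and Tnni3 did not pass the test in the KO, with log2 fold changes of -0.53, 0.67, -0.45 and 1.31.

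Myl2, the slow regulatory light chain, rose from 4.06 to 20.9 CPM in the KO and from 27.4 to 35.3 CPM to 490 and 627 CPM in controls, so that the KO section of E18.5 lay below the E14.5 controls. Its difference was -1.81 ± 0.30 (adjusted p = 0.0176), and its KO rise was not called with 1 muscle cut for all sections (0.96, adjusted p = 0.0869). Myl3, a slow essential light chain, rose from 5.7 to 27.5 CPM where controls had 34.1 to 50.6 CPM at E14.5 and 212 to 297 CPM at E18.5. Myl4, the embryonic light chain, fell from 3055 to 1260.4 CPM (-1.28 ± 0.25). Mylk2, the skeletal myosin light chain kinase, rose from 3.07 to 177 CPM in the KO against 29.5 to 45.5 CPM at E14.5 and 339.6 to 385 CPM at E18.5 in controls. Its difference was 2.48 ± 0.41 (adjusted p = 0.0205).

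Of 34 sarcomere assembly and Z-disc genes, 25 rose in the KO, 1 fell and 8 were not called (median 1.94, controls 2.41). Mybpc2, the fast myosin-binding protein C, rose from 0.956 to 410.4 CPM (8.74 ± 0.28). Myoz1, a fast-fibre Z-disc protein that binds calcineurin, rose from 24.2 to 1619.9 CPM (6.07 ± 0.39), and Actn3, the fast-fibre α-actinin, from 36 to 650.3 CPM (4.18 ± 0.23). Tmod4, which caps thin filaments, rose from 9.21 to 407 CPM against 27.5 to 38.5 CPM at E14.5 and 519.7 to 543 CPM at E18.5 in controls, with a difference of 1.41 ± 0.28 (adjusted p = 0.0244).

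In this list the difference was called lower for 5 of the 34 genes, where 5.27% of all genes were. Without replicate 2 or 3 of control E14.5 it was called lower for 1, and without replicate 1 for 14. With 1 muscle cut for all sections it was called lower for 19. Of all genes, 354, 148, 1039 and 973 were called lower in these settings. On the scale of the 9 muscle genes it was called higher for 6 and lower for 1, where 4830 and 54 of all genes were. Csrp3, the muscle LIM protein of the Z-disc, was 1 of the 8 not called in the KO. It had 112 CPM at E14.5 and 77.3 CPM at E18.5 in the KO and 421, 289 and 261 CPM at E14.5 and 1594 and 1514 CPM at E18.5 in controls. Its KO change was -0.53 ± 0.31 (adjusted p = 0.195) and the difference -2.79 ± 0.37 (adjusted p = 0.0124), so that both KO sections lay below all 5 controls. Ankrd2, a stretch-responsive ankyrin repeat protein that also binds at the sarcomere, had 1.32 CPM at E14.5 and 1.28 CPM at E18.5 in the KO and 6.71, 4.73 and 5.34 CPM at E14.5 and 129.8 and 175 CPM at E18.5 in controls. It changed by -0.04 ± 0.51 in the KO (adjusted p = 0.955) and by 4.78 ± 0.18 in controls. The difference of -4.82 ± 0.55 (adjusted p = 0.0104) was the most negative among the muscle-enriched genes named.

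Further muscle-enriched genes differed in the same direction. Fhl1, a LIM-domain protein of the sarcomere, rose from 95.2 to 278 CPM in the KO and had 182 to 239 CPM at E14.5 and 2462 to 2600.4 CPM at E18.5 in controls, a difference of -2.08 ± 0.26 (adjusted p = 0.0104). Tppp3, a tubulin polymerization-promoting protein, fell from 177 to 81.4 CPM in the KO (-1.12 ± 0.20) and rose in controls (1.51 ± 0.12), where it had 295 to 369 CPM at E14.5 and 894 to 944 CPM at E18.5. Slc25a33, a mitochondrial pyrimidine nucleotide carrier, had 21.2 CPM at E14.5 and 27.8 CPM at E18.5 in the KO, a change that did not pass the test (adjusted p = 0.0779), and 16.1 to 18.6 CPM at E14.5 and 89.2 to 101 CPM at E18.5 in controls.

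The greatest KO rises of muscle-enriched genes started from few counts. Eef1a2, the translation elongation factor of adult muscle and neurons, went from 2 UMIs to 2665, an unscaled ratio of 1698 with an exact counting interval of 469.6 to 14028, and controls had 0.188 to 0.464 CPM at E14.5 and 696 to 747 CPM at E18.5. Thrsp, a nuclear protein linked to fat synthesis, went from 2 UMIs to 981, a ratio of 625 (173 to 5168), and Asb12, an ankyrin repeat and SOCS box protein, from 2 to 661, a ratio of 421 (116 to 3485). Smtnl1, a smoothelin-like protein, rose from 0.359 to 53.3 CPM (7.20 ± 0.38). Mlip, a muscle protein that binds lamin A, rose from 1.39 to 169 CPM against 10.3 to 15.4 CPM at E14.5 and 252 to 271 CPM at E18.5 in controls, with a difference of 2.54 ± 0.35 (adjusted p = 0.0133). The intervals cover counting error only.

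Of the 4 creatine kinases, which buffer ATP, 2 rose in the KO and 1 fell. Ckm, the cytosolic muscle form (chr7:19411094-19421583), had 88.4 CPM at E14.5 and 10627 CPM at E18.5 in the KO and 1309.9, 869 and 898 CPM at E14.5 and 27138 and 25589 CPM at E18.5 in controls. It was lowest in the KO section of E14.5, rose by 6.91 ± 0.41 in the KO (adjusted p = 1.11e-05) and 4.68 ± 0.22 in controls, and ended below both E18.5 controls, with a difference of 2.22 ± 0.38 (adjusted p = 0.0176). Ckmt2, the mitochondrial muscle form, rose from 6.06 to 1019 CPM (7.39 ± 0.46), and Ckb, the brain form, fell from 46.2 to 28 CPM (-0.72 ± 0.20, adjusted p = 0.0156), a call lost when all spots of 1000 UMIs or more were used (adjusted p = 0.237). Ckmt1 was near its floor, with 2 UMIs at E14.5 and 8 at E18.5.

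The calcium machinery rose in the KO. Of 16 genes of the CaV1.1 complex and triad, 12 rose and 1 fell (median 1.19, controls 1.63, where 15 rose). Trdn, triadin, which anchors the release channel to the calcium store, rose from 56.4 to 499 CPM (3.14 ± 0.25), Jsrp1, a partner of CaV1.1 at the triad, from 60.5 to 364 CPM (2.59 ± 0.22), Cacng1, the γ subunit of the channel, from 39.8 to 238 CPM (2.58 ± 0.19), and Jph1, junctophilin, which ties the membranes together, from 50 to 249 CPM (2.32 ± 0.17). Controls had 80.3 to 114 CPM at E14.5 and 817 to 823 CPM at E18.5 for Trdn. Cav3, muscle caveolin, had 138 CPM at E14.5 and 154 CPM at E18.5 in the KO (adjusted p = 0.499) and 148, 125 and 119 CPM at E14.5 and 387 and 358 CPM at E18.5 in controls, a difference of -1.35 ± 0.22 (adjusted p = 0.0158). With 1 muscle cut for all sections Cav3 was called lower at E18.5 in the KO (-0.74, adjusted p = 0.00699).

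Of 18 genes of calcium storage, uptake and buffering, 11 rose and none fell in the KO (median 1.32, controls 1.74). Pvalb, the calcium buffer of fast fibres, rose from 1.43 to 359.8 CPM (7.97 ± 0.98). Casq1, the fast calcium store protein, rose from 117 to 2162 CPM (4.21 ± 0.36), Atp2a1, the fast calcium pump, from 695 to 5893 CPM (3.08 ± 0.32), and Sln, which inhibits that pump, from 115 to 1018 CPM (3.15 ± 0.22). Of 26 membrane complex and ion channel genes, 24 rose and 1 fell (median 2.03, controls 2.07). Kcna7, a potassium channel, rose from 0.399 to 7.83 CPM (4.28 ± 0.39) and Kcnc4, another, from 0.996 to 46.8 CPM (5.55 ± 0.22), where controls had 3.02 to 3.67 CPM at E14.5 and 25.2 to 25.7 CPM at E18.5. The difference for Kcnc4 was 2.69 ± 0.25 (adjusted p = 0.00499).

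Of 18 genes of the calcium and calcineurin response, 12 rose and 2 fell (median 1.24, controls 1.68). Ppargc1a, the coactivator of mitochondrial genes, rose from 5.38 to 56.1 CPM (3.38 ± 0.23), Mb, myoglobin, from 3.63 to 186 CPM (5.68 ± 0.62), and Nr4a1, an immediate early nuclear receptor, from 6.7 to 45.5 CPM (2.76 ± 0.20), a call lost over all spots (adjusted p = 0.137). Of 23 genes of the denervation and inactivity response, 8 rose and 4 fell (median 0.11, controls 0.79). Camk2b, a calcium-dependent kinase, rose from 15.4 to 235 CPM (3.93 ± 0.23). Dach2, a repressor of myogenin, fell from 2.19 to 0.406 CPM (-2.42 ± 0.58, adjusted p = 0.00829), while controls had 0.802 to 1.07 CPM at E14.5 and 1.39 to 1.91 CPM at E18.5, a difference of -3.21 ± 0.66 (adjusted p = 0.0261). The KO fall of Dach2 was no longer called in the muscle spots above the section's median score (adjusted p = 0.057) or with 1 muscle cut for all sections (-0.88, adjusted p = 0.475), and with that cut its difference was -1.64 (adjusted p = 0.279).

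Endplate genes are shown with the promoters of 3 receptor subunits, because the members of this family moved differently. The sequences are the 250 bases before the gene start in the RefSeq promoter table (GRCm38.p6), 5′ to 3′ on the gene's strand, for Chrne (chr11:70619195-70619444, minus strand), Chrng (chr1:87205561-87205810, plus strand) and Chrna1 (chr2:73580339-73580588, minus strand). Capitals mark CAGCTG, a form of the E-box that myogenic factors bind, and, in Chrne, CCGGAA, the N-box bound by ETS-family factors at the endplate.
Chrne: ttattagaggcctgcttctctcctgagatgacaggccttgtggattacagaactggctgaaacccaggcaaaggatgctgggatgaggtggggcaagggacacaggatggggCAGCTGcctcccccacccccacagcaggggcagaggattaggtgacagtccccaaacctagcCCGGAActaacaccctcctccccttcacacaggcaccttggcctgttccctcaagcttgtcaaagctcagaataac
Chrng: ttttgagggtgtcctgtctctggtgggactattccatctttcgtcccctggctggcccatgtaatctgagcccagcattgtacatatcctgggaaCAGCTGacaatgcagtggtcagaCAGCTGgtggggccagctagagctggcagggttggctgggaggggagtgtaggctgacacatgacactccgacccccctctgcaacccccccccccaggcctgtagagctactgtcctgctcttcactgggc
Chrna1: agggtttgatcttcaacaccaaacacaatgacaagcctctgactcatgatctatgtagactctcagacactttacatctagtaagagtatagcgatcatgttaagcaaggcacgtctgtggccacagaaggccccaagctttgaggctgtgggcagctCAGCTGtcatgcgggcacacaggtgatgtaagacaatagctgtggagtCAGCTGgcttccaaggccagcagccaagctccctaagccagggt
Chrne held 1 N-box and 1 E-box, and Chrng and Chrna1 held 2 E-boxes each and no N-box. Counted on both strands, 37.5% of the 16 endplate genes matched in the table (of 24) held the E-box and 12.5% the N-box, against 12.8% and 12.2% of 27025 promoters. A match is a description of letters, not a binding site.

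Of the 24 endplate genes, 9 rose in the KO, 3 fell and 12 were not called (median 0.22), while 9 rose and 9 fell in controls (median -0.03). The difference was called higher for 6, namely Chrnd, Chrng, Chrne, Ache, Ufsp1 and Lrtm1, and lower for Etv4, where 2.93% of all genes were called higher and 5.27% lower. On the scale of the 9 muscle genes it was called higher for 16 and lower for none, and without replicate 3 of control E14.5 for 4 and none. Of all genes, 4830 were called higher and 54 lower on that scale, and 76 higher and 148 lower without that replicate. Chrne, the adult ε subunit, was counted in 3 UMIs in the KO section of E14.5 and 242 at E18.5, an unscaled ratio of 103 (exact counting interval 34.8 to 502). In CPM it had 0.12 CPM at E14.5 and 14 CPM at E18.5 in the KO and 0.802, 0.695 and 0.817 CPM at E14.5 and 5.34 and 5.65 CPM at E18.5 in controls, so the KO section of E18.5 was the highest of the 7. The difference of 3.99 ± 0.49 was called (adjusted p = 0.0102), but its size depends on the prior count added to those 3 UMIs.

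Chrng, the fetal γ subunit that Chrne replaces, had 319.9 CPM at E14.5 and 215 CPM at E18.5 in the KO and 423, 306 and 346 CPM at E14.5 and 119 and 103 CPM at E18.5 in controls. Its KO change of -0.57 ± 0.23 did not pass the test (adjusted p = 0.0662), controls fell by 1.69 ± 0.15 on the log2 scale, and the difference was 1.12 ± 0.27 (adjusted p = 0.0409). Chrnd, the δ subunit, whose gene (chr1:87190597-87200070) lies next to Chrng (chr1:87205811-87211835), rose in the KO (101 CPM at E14.5 and 195 CPM at E18.5, 0.95 ± 0.21, adjusted p = 0.0057), where controls had 143, 103 and 126 CPM at E14.5 and 94.7 and 92.4 CPM at E18.5. Its difference was 1.35 ± 0.24 (adjusted p = 0.0205). Chrnb1, the β subunit, rose from 79.7 to 117 CPM (0.56 ± 0.17, adjusted p = 0.0279), a call lost with 1 muscle cut for all sections (adjusted p = 0.414) and over all spots (0.0508). Chrna1, the α subunit, had 214 CPM at E14.5 and 190.1 CPM at E18.5 and did not pass the test (adjusted p = 0.503), while controls had 172 to 227 CPM at E14.5 and 114 to 116 CPM at E18.5.

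Ache, acetylcholinesterase, and Ufsp1, a UFM1-specific protease, are neighbours on chromosome 5 (chr5:137288247-137294466 and chr5:137294669-137295664) and moved alike. Ache had 26.5 CPM at E14.5 and 75 CPM at E18.5 in the KO and 80.7, 67.3 and 84.7 CPM at E14.5 and 60.8 and 72 CPM at E18.5 in controls, a KO rise of 1.5 ± 0.19 and a difference of 1.73 ± 0.23 (adjusted p = 0.0114). Ufsp1 had 23 CPM at E14.5 and 108 CPM at E18.5 and 60.5, 47.2 and 67.1 CPM at E14.5 and 75 and 74.3 CPM at E18.5, a rise of 2.23 ± 0.23 and a difference of 1.87 ± 0.26 (adjusted p = 0.0131). Both were lower in the KO section of E14.5 than in every control section. Lrtm1, a leucine-rich repeat transmembrane protein, rose from 5.74 to 178 CPM (4.95 ± 0.26) against 21.3 to 30.1 CPM at E14.5 and 187 to 211 CPM at E18.5 in controls, and its difference was 2.01 ± 0.28 (adjusted p = 0.0131). Etv4, an ETS-family factor, fell from 16.9 to 5.39 CPM (-1.65 ± 0.19) against 16.8 to 17.9 CPM at E14.5 and 10.9 to 12.1 CPM at E18.5 in controls. The Schwann cell markers rose beside these genes in the KO, as given above.

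**Figure D4:**
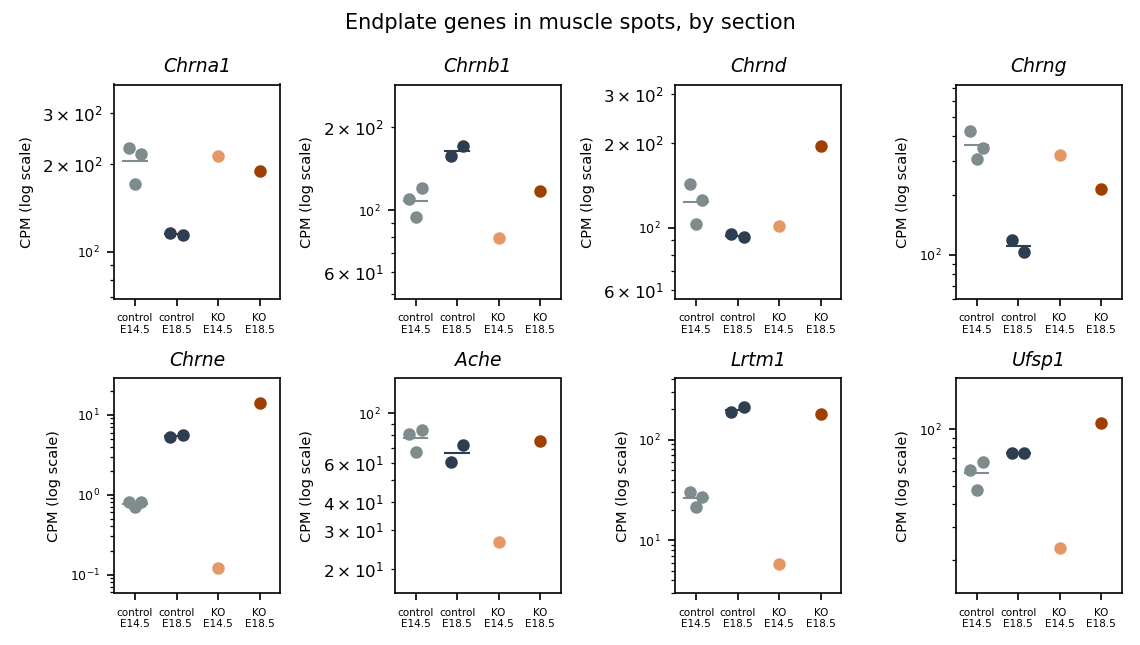
Level in muscle spots (CPM, log axis) of the 5 acetylcholine receptor subunit genes, Ache, Lrtm1 and Ufsp1 in each control and CaV1.1 KO section; each point is a section and lines are means of control sections. Chrng went from 320 to 215 CPM in the KO and to 103 and 119 CPM in controls, and Chrne and Chrnd ended above both E18.5 controls, with Chrnd at 195 CPM.

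Metabolic genes rose in the KO, and on the TMM scale by less than in controls for much of the mitochondrial lists. Of 73 nuclear genes of the respiratory chain, 61 rose in the KO and none fell (median 0.97), while 70 rose in controls (median 1.88). The difference was called lower for 40 and higher for none, where 5.27% of all genes were called lower. For the 67 of them that controls changed at least 2-fold, the median KO change was 53.9% of the control change, a share that this choice of genes tends to lower. On the scale of the 9 muscle genes the median difference of this list was -0.02, with 3 called higher and 1 lower. Of all 14823 genes, 4830 were called higher and 54 lower on that scale, and the median over all genes had shifted by 0.85. Without replicate 3 of control E14.5 the TMM difference was called lower for 7, where 148 of all 14913 genes were. The KO rise itself was called for 55 of 73 there. Of 23 citric acid cycle genes, 19 rose and 1 fell in the KO (median 1.23, controls 2.11), with 11 differences called lower. Without replicate 3 of control E14.5 that count was 1, without replicate 2 it was 4, without replicate 1 it was 19, and without replicate 1 of control E18.5 it was 7. Of all genes, 148, 354, 1039 and 617 were called lower in these settings, against 781 with all sections. On the scale of the 9 muscle genes the median difference of the citric acid cycle was 0.06, with none lower and 1 higher.

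Muscle forms of the chain were among its greatest rises. Cox7a1, a muscle subunit of cytochrome c oxidase (chr7:30184171-30186030), had 5.26 CPM at E14.5 and 467 CPM at E18.5 in the KO and 19.4, 15.5 and 13.4 CPM at E14.5 and 1096 and 1102 CPM at E18.5 in controls, a KO rise of 6.47 ± 0.29 (adjusted p = 3.85e-06). Cox8b and Cox6a2, further muscle subunits, rose from 53.1 to 589 CPM (3.47 ± 0.24) and from 308 to 1806 CPM (2.55 ± 0.23). Ndufa6, a subunit of complex I, rose from 61.8 to 105 CPM (0.76 ± 0.17), against 46.5 to 55.7 CPM at E14.5 and 289 to 339.5 CPM at E18.5 in controls, a difference of -1.88 ± 0.21 (adjusted p = 0.00804). The KO rise of Ndufa6 was not called with 1 muscle cut for all sections (adjusted p = 0.0653) or over all spots (0.107). In the citric acid cycle Idh3a rose from 100.2 to 465 CPM (2.21 ± 0.19). Got1, the cytosolic aspartate aminotransferase, rose from 72.5 to 238 CPM (1.71 ± 0.17) against 74.6 to 87 CPM at E14.5 and 503 to 539 CPM at E18.5, a difference of -1.01 ± 0.20 (adjusted p = 0.0228). Pdhb, of the pyruvate dehydrogenase complex, had 90.7 CPM at E14.5 and 134 CPM at E18.5 in the KO (adjusted p = 0.083) and 76.6 to 104 CPM at E14.5 and 288 to 359.8 CPM at E18.5 in controls, a difference of -1.33 ± 0.28 (adjusted p = 0.0304).

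Of 28 genes of fatty acid use and myoglobin, 24 rose and 1 fell (median 1.53, controls 2.08). The difference was called lower for 10 and higher for 1, where 5.27% and 2.93% of all genes were. Without replicate 3 of control E14.5 it was called lower for 1 and higher for none, and on the scale of the 9 muscle genes lower for none and higher for 6. Of all genes, 148 were called lower and 76 higher without that replicate, and 54 lower and 4830 higher on that scale. Cpt1b, which carries fatty acids into muscle mitochondria, rose from 1.63 to 139 CPM (6.41 ± 0.45). Ucp3, a mitochondrial carrier of muscle, rose from 0.677 to 21.2 CPM (4.96 ± 0.37) against 1.36 to 1.73 CPM at E14.5 and 10.5 to 15.1 CPM at E18.5 in controls, a difference of 1.88 ± 0.42 (adjusted p = 0.0335). That difference was 0.54 with 1 muscle cut for all sections (adjusted p = 0.578) and was not called by limma-voom (0.16). Hadhb, of fatty acid oxidation, had 119 CPM at E14.5 and 112 CPM at E18.5 in the KO (adjusted p = 0.76) and 88.7 to 113 CPM at E14.5 and 245 to 299.5 CPM at E18.5 in controls, a difference of -1.5 ± 0.24 (adjusted p = 0.0159). Of 28 genes of glycogen and glycolysis, 20 rose and 3 fell (median 1.32, controls 2.08). Here the difference was called lower for 6 and higher for 1. Without replicate 3 of control E14.5 it was called lower for 2 and higher for none, and on the scale of the 9 muscle genes lower for none and higher for 3. Phkg1, the muscle phosphorylase kinase subunit, rose from 0.797 to 60.8 CPM (6.25 ± 0.30), Pygm, muscle glycogen phosphorylase, from 128 to 1645 CPM (3.68 ± 0.33), and Gpd1, glycerol-3-phosphate dehydrogenase, from 1.87 to 74.8 CPM (5.32 ± 0.21) against 1.82 to 2.62 CPM at E14.5 and 248 to 269 CPM at E18.5 in controls, a difference of -1.53 ± 0.27 (adjusted p = 0.0176).

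Cell cycle genes fell in the KO. Of 40 S phase genes 39 fell and none rose (median -1.31, controls -1.73, where 40 fell), and of 47 G2M phase genes 42 fell and none rose (median -1.29, controls -1.67). The difference was called higher, that is, a smaller fall, for 3 and 5 of them, where 2.93% of all genes were called higher. These counts were 33 and 34 on the scale of the 9 muscle genes, and 0 and 0 without replicate 3 of control E14.5 and 0 and 2 without replicate 2. Of all genes, 4830, 76 and 229 were called higher in these settings, against 434 on the TMM scale with all sections. Bub1, a mitotic checkpoint kinase, had 80.7 CPM at E14.5 and 16.5 CPM at E18.5 in the KO and 69.2, 65.9 and 63.3 CPM at E14.5 and 15.9 and 10.6 CPM at E18.5 in controls (KO change -2.29 ± 0.26, adjusted p = 3.18e-04). Gtse1, a regulator of G2, fell from 26.1 to 7.65 CPM (-1.77 ± 0.23), and Ccne1, cyclin E1, from 334 to 61.1 CPM (-2.45 ± 0.33). Of 37 clustered histone genes, whose messages are made in S phase, 25 fell and 1 rose (median -1.40, controls -1.28).

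The promoters of Cdk1 and Top2a, both in the G2M list, are printed because most of that list fell together. They are the 250 bases before the gene start (RefSeq, GRCm38.p6) at chr10:69352913-69353162, minus strand, and chr11:99024190-99024439, minus strand. Capitals mark TTTGAA, the core of the cell cycle homology region (CHR), and CCAAT, each on either strand.
Cdk1: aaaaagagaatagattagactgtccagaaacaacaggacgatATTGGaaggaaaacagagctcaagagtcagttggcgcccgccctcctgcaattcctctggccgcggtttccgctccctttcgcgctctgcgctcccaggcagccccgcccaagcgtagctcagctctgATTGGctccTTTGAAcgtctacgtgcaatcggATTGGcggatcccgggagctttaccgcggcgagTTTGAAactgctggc
Top2a: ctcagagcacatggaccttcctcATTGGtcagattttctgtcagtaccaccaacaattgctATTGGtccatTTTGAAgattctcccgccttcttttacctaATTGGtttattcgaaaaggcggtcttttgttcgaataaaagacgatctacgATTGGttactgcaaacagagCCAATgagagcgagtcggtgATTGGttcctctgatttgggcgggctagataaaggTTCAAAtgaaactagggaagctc
Cdk1 held 2 CHR and 3 CCAAT motifs, and Top2a held 2 and 6. Of the 47 G2M genes matched in the table (of 54 listed), 40.4% held a CHR motif and 76.6% a CCAAT motif, against 16.3% and 34.5% of 27025 promoters. Of the 32 S phase genes matched (of 44), 15.6% and 68.8% did.

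Regulators of development moved in both directions. Of 18 fetal timing genes, 3 rose and 8 fell (median -0.91, controls -1.03). Hmga2, a chromatin protein of fetal growth, fell from 29.2 to 2.49 CPM (-3.55 ± 0.22), Igf2bp1, an RNA-binding protein of fetal tissue, from 153 to 32.8 CPM (-2.22 ± 0.17), Dcx, doublecortin, from 129 to 28.6 CPM (-2.17 ± 0.31), and Il17b, a cytokine of the interleukin 17 family, from 107 to 3.54 CPM (-4.92 ± 0.38), the deepest fall among muscle-enriched genes. Of 34 splicing regulators, 4 rose and 20 fell (median -0.58, controls -0.61). Rbfox1, a splicing factor of mature muscle and neurons, rose from 15.3 to 77.7 CPM (2.35 ± 0.24), and Srsf3 and Hnrnpc, general splicing factors, fell from 228 to 47.7 CPM (-2.26 ± 0.29) and from 207 to 49.9 CPM (-2.05 ± 0.19). Srsf1 had 491 CPM at E14.5 and 365 CPM at E18.5 and did not pass the test (adjusted p = 0.0521).

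Of 31 myogenic factors and fusion genes, 8 rose and 8 fell, 25.8% each way (median -0.14, controls 0.21). That is near the 23.3% of all genes called in each direction. Myf6, the myogenic factor of differentiated fibres, rose from 37.5 to 284 CPM (2.92 ± 0.23), and Myf5, that of myoblasts, fell from 56.5 to 18.7 CPM (-1.59 ± 0.23). Msc, musculin, a repressor of myogenic factors, fell from 162 to 27.8 CPM (-2.55 ± 0.16) against 174 to 201 CPM at E14.5 and 50.9 to 57 CPM at E18.5 in controls, a difference of -0.75 ± 0.18 (adjusted p = 0.0416). Other muscle-enriched falls were those of Tubb2a and Tubb2b, β-tubulins, from 337 to 57.2 CPM (-2.56 ± 0.24) and from 444 to 86.1 CPM (-2.37 ± 0.34). Prkg1, a cGMP-dependent kinase, fell from 81 to 16.2 CPM (-2.32 ± 0.16) against 58.8 to 67.2 CPM at E14.5 and 26.7 to 28.9 CPM at E18.5, a difference of -1.13 ± 0.18 (adjusted p = 0.0156) that over all spots was -0.65 and not called (0.095). Gja5, connexin 40, fell from 121 to 9.28 CPM (-3.70 ± 0.72), a call lost without replicate 1 (adjusted p = 0.0579) or 2 (0.053) of control E14.5.

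Without replicate 3 of control E14.5, 14 of the 34 differences reported above for single genes lost their call: those of Myh3, Myh7, Tnnc1, Ckm, Tmod4, Chrnd, Chrng, Etv4, Dach2, Ucp3, Got1, Pdhb, Msc and Thrsp, with adjusted p between 0.0525 and 0.0983 and no change of sign. Thrsp was just inside the threshold with all sections (difference 3.23 ± 0.81, adjusted p = 0.0496) and rests on 2 UMIs in the KO section of E14.5. Its difference was also lost without replicate 1 of control E14.5 (0.0525), by limma-voom (0.171), above the section's median score (0.0643) and with 1 muscle cut for all sections (7.67, adjusted p = 0.251). Without replicate 2 of control E14.5 the differences of Myh3, Tnnc1, Etv4, Dach2, Ucp3, Got1, Pdhb, Msc and Thrsp lost their call (adjusted p between 0.0536 and 0.0842), and without replicate 2 of control E18.5 those of Chrng (0.0586) and Msc (0.0564). Further losses were those of Tmod4 with 1 muscle cut for all sections (0.97, adjusted p = 0.0564), Cacna1s (0.0571) and Etv4 (0.0562) over all spots, Etv4 (0.052), Msc (0.0583) and Mylk2 (0.0524) by limma-voom, and Msc (0.0891) and Pdhb (0.0504) above the section's median score.

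Within the KO sections, levels were also described by part. Each section's muscle spots were split by angle into 4 equal parts, which are not replicates. A change over the whole muscle and one in a band that crosses all parts cannot be told apart this way. In unscaled CPM, the parts of the KO sections did not overlap, with every part higher at E18.5, for 3080 of 14823 genes (20.8%). With every part lower, they did not overlap for 5472 (36.9%). The TMM factors were 1.21 at E14.5 and 1.06 at E18.5, and leaving them out moves genes toward lower. In unscaled CPM, Myh4 ranged over 13.3 to 19.2 in the parts of E14.5 and 976 to 1966 in those of E18.5, and Myh3 over 4562 to 5073 and 1327 to 2233. The parts overlapped for Ankrd2, at 1.15 to 1.97 and 0.774 to 1.69, and for Csrp3.

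By spot, Myh4 UMIs were found in 35.6% of the 491 muscle spots at E14.5 (175 spots) and 99.9% of the 813 at E18.5 (812), at similar medians of UMIs per spot. Per 10000 UMIs of a spot, Myh8 had a median of 33.3 at E14.5 and 215 at E18.5, Myh3 46.6 and 14.1, and Mki67, a proliferation marker, 5.01 and 1.56. UMIs of Chrng were less concentrated at E18.5: the tenth of muscle spots with the most held 41.6% of them at E14.5 and 27.1% at E18.5, and for Chrna1 42.6% and 33.0%. Myh8 and Myh3, found in every muscle spot, went the same way (38.7% and 20.3%, 39.6% and 25.5%). So did Mki67 (35.5% and 27.7%), Ckm and Myh4, that is, every gene described by spot. UMIs were not scaled to the total of a spot here, so these shares also depend on how evenly all UMIs lay over spots. Whether receptor transcripts themselves spread out was not tested.

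**Figure D5:**
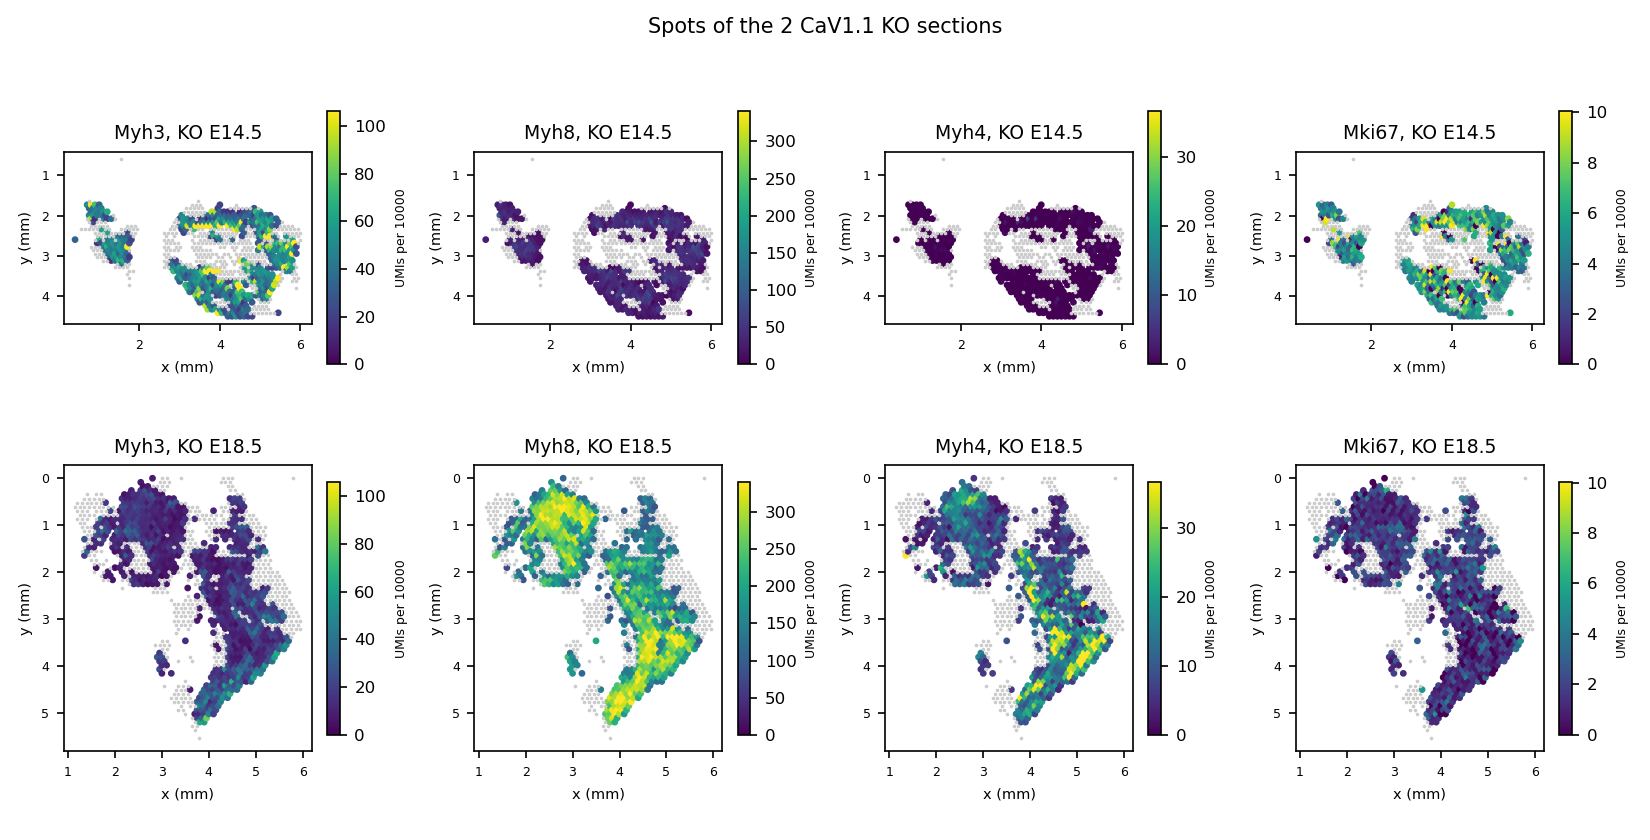
Maps of the CaV1.1 KO sections of E14.5 (top) and E18.5 (bottom), x and y in mm; muscle spots are coloured by UMIs per 10000 of the spot for Myh3, Myh8, Myh4 and Mki67, on 1 scale per gene that ends at the 98th percentile, and other spots are grey. Myh3 and Mki67 were brighter at E14.5 and Myh8 and Myh4 at E18.5, over most of the muscle area.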

How the data were processed

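Per the labels and the study's methods, 5 µm en face sections of formalin-fixed, paraffin-embedded diaphragms were placed on Visium slides, 1 diaphragm each. The authors aligned reads to mm10 and counted UMIs per spot with Space Ranger (2.0.0 in 3 and 2.0.1 in 5 file headers) against 19465 probed genes, and deposited these raw counts. Spots under 1000 UMIs were dropped and the rest split by an Otsu cut per section (scikit-image 0.26.0). Counts were summed per section over muscle spots and fitted in 1 edgeR 4.0.16 quasi-likelihood model (filterByExpr, TMM, robust) with 5 groups and 8 sections, with Benjamini-Hochberg adjustment over all genes. On simulated counts, for genes of mean log2 CPM above 5, the KO contrast recovered 23.9% of 1.5-fold changes. It recovered 77.6% of 2-fold and 98.5% of 4-fold changes, so a gene not called may still have changed. The contrasts were E18.5 minus E14.5 in CaV1.1 KO, in controls, and their difference. Alternatives were DESeq2 1.42.0, its size factors, limma-voom 3.58.1, scaling to the 9 muscle genes, no filter, other spot choices, each control section left out, the bCat cKO section left out, a replicate block and a 2-fold minimum.

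Named genes were the 12 with the greatest rise and fall in the KO and the 10 with the greatest difference each way (called, mean log2 CPM of at least 5, at least 1.5 times higher in muscle than in other spots of the KO section where the gene was higher, not among the 9 muscle genes), Cacna1s, all myosin heavy chains, troponins, creatine kinases and acetylcholine receptor genes, and for each other list up to 4 members with the greatest KO change and 2 called in controls alone. Of these, 95 are described, and some are not reported here. Genes and lists were chosen with earlier results of these data known. Space Ranger barcodes are array positions, so the 521 shared by the KO sections are not shared cells. Exact intervals are at 95% and cover counting error. The authors' image scale factors and spatial statistics were not used.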

Additional observations from a re-analysis of the deposited data

Results flagged for a closer look

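Of the 95 genes described, 34 had a stage change that differed between CaV1.1 KO and controls by the test of the difference itself (edgeR quasi-likelihood, adjusted p from 0.00499 to 0.0496). Of all genes tested 8.2% did. Some of the genes were named for the size of a called difference, so the count of 34 follows from that choice. With the replicate number as a block all 34 lost the call. Each value below is the KO change minus the control change in log2 units, with 2 KO and 5 control sections. Where the KO change was higher, the difference was 3.99 for Chrne, 3.23 for Thrsp, 3.23 for Myh4, 2.69 for Kcnc4, 2.54 for Mlip and 2.48 for Mylk2. Among the smaller ones it was 2.22 for Ckm, 2.01 for Lrtm1, 1.88 for Ucp3, 1.87 for Ufsp1, 1.73 for Ache, 1.41 for Tmod4, 1.35 for Chrnd and 1.12 for Chrng. Where the KO change was lower, the difference was -4.82 for Ankrd2, -3.21 for Dach2, -2.79 for Csrp3, -2.64 for Tppp3, -2.09 for Slc25a33, -2.08 for Fhl1, -1.88 for Ndufa6 and -1.81 for Myl2. It was -1.75 for Myh7, -1.56 for Myh3, -1.53 for Gpd1, -1.50 for Hadhb, -1.35 for Cav3, -1.33 for Pdhb, -1.26 for Tnnc1 and -1.23 for Cacna1s. It was -1.13 for Prkg1, -1.05 for Etv4, -1.01 for Got1 and -0.75 for Msc. Groups of up to 3 sections were too small for a test of single outlying sections.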

How the results depend on the processing

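Of the counts of genes called, the KO stage change (6906) stayed between 6086 and 7212 in all alternatives but 2: it was 12494 with scaling to the 9 muscle genes and 3598 with a 2-fold minimum added. The control stage change (9729) was 4421 with that minimum and 8634 to 14096 otherwise. The difference (1215) was 4884 with scaling to the 9 muscle genes and 633 with the 2-fold minimum, and DESeq2 called 1572 and limma-voom 927. With each control section left out in turn it ranged from 224 to 1509, the KO change from 6382 to 7212 and the control change from 8634 to 9310. The replicate block left 1 residual degree of freedom and called 0 differences (edgeR quasi-likelihood; 3750 genes at an unadjusted p under 0.05), and 6696 and 9090 stage changes. The replicate numbers are shared names, and the labels do not say that a number pairs sections. Deviations of the same-numbered control sections from their stage mean correlated at -0.14 (number 1) and -0.24 (number 2) over 6088 genes. With 2 E18.5 controls the deviations of one are the negative of the other's, so unlike numbers give 0.14 and 0.24 by construction. These values therefore cannot decide whether a number marks a shared batch. The cause of the other shifts was not tested.

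Single genes were recomputed in 15 alternatives. Scaling to the 9 muscle genes was taken relative to the median shift and without a test, so no call was compared there. A value on that scale counted as kept if it lay within the standard error of the main value. That scaling moves every gene by nearly the same amount, so these values return near the main ones by construction and are no check. They are included in the counts kept below. Without removal of the median shifts, -2.33 in the KO and 0.85 in the difference, smaller changes of the opposite sign would change direction. Of 1425 KO values, 1369 kept direction and, where tested, the call, 16 lost and 31 gained the call, and 9 changed sign. With 1 muscle cut for all sections the latter were Myh7 (-0.79), Trim55 (-0.23), Cav3 (-0.74) and Slc25a33 (-0.10), of which Myh7 and Cav3 were then called lower, above the section's median score Myh7 (-0.23), Ankrd2 (0.19) and Hadhb (0.19), and over all spots Myh6 (0.00484) and Ankrd2 (0.17). The shared cut was stricter than the section's own at E14.5, leaving 74 of the 491 KO muscle spots, and looser at E18.5, raising them from 813 to 988. It thus compares unlike parts of the KO sections. Of 510 values of the difference, 75 lost the call, 34 of them under the block. None changed sign, with the scale of the 9 muscle genes taken after removal of its median shift.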
